A study of Mus musculus with 9 samples.

Results

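The Hox-cluster miRNAs are small RNAs whose genes lie among the Hox genes, and 5 of them were examined in the mouse hippocampus: miR-10a-5p, miR-10b-5p, miR-196a-5p, miR-196b-5p and miR-615-3p. They were taken by name (mmu-miR-10a-5p, mmu-miR-10b-5p, mmu-miR-196a-5p, mmu-miR-196b-5p and mmu-miR-615-3p) from the 1448 mature miRNAs that the table lists, and all 5 were found. In these libraries miR-10a-5p and miR-10b-5p were present at a low level in every library, with 82 to 219 and 32 to 186 reads. MiR-196b-5p, miR-196a-5p and miR-615-3p had at most 6, 3 and 2 reads in any library, although each library held at least 10119758 reads on miRNAs. No difference between groups passed the adjusted threshold. The LPS + GAS group had the highest mean level of each of the 5 miRNAs, as it had for 32.3% of the 628 miRNAs with enough reads to be tested and for 35.5% of the 719 with fewer. For miR-196b-5p and miR-615-3p this order against saline turned when LPS + GAS replicate 2 and LPS + GAS replicate 1, respectively, were left out, and for miR-615-3p also without saline replicate 2. MiR-615-3p rested on 3 reads against 2.

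MiRNAs guide Argonaute proteins to messenger RNAs through their seed, the bases near the 5′ end that pair with the target. Hox genes encode transcription factors that give cells of the trunk, spinal cord and hindbrain their position along the body axis, and the forebrain, from which the hippocampus develops, largely lacks Hox expression. The miRNAs of the Hox clusters are transcribed with their neighbours, and several Hox mRNAs are among their known targets. MiR-10a is also known from endothelial cells, where it restrains inflammatory signalling.

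Small RNA was sequenced from the hippocampus of adult male C57BL/6J mice, in 3 libraries per group. The groups are called saline, LPS and LPS + GAS here. LPS, a bacterial endotoxin that induces inflammation, was injected intraperitoneally at 1 mg/kg into all mice except those given saline alone, and LPS + GAS mice also received GAS (gastrodin, a phenolic glucoside) at 100 mg/kg. The labels place GAS 1 h after LPS, whereas the methods describe a concurrent injection as well. The abstract places GAS before LPS, so the order is not settled. The saline group received 0.9% saline, and the labels give 0.12% saline for the LPS group. The sources used here do not say whether a library holds the tissue of a single mouse, so that the p-values measure the spread between these libraries. The libraries held 10119758 to 11457656 reads on miRNAs. Markers of neurons were abundant in all of them, with a summed level of 76580 to 118000 CPM for 4 miRNAs and a mean of 66030 CPM for the most abundant, miR-124-3p. CPM are counts per 1000000 reads after TMM normalization, which scales each library so that most miRNAs keep their level.

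The mature sequences are shown because the members form pairs that differ by 1 base and because their seeds separate them from far more abundant relatives. They are those of the deposited table and are identical to RefSeq (GRCm38.p6) for all 5 members. Capitals mark the seed, bases 2 to 8 from the 5′ end.
miR-10a-5p: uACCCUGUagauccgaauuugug
miR-10b-5p: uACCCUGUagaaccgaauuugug
miR-196a-5p: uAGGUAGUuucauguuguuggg
miR-196b-5p: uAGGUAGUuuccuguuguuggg
miR-615-3p: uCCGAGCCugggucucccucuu
MiR-10a-5p and miR-10b-5p differed by U12A, counted from 1 at the 5′ end of miR-10a-5p, and were identical at the other 22 bases. MiR-196a-5p and miR-196b-5p differed by A12C and were identical at the other 21. Both differences lie outside the seed, so each pair shares its seed, which no other mature miRNA of the table has at bases 2 to 8. The seed of miR-615-3p was found at these bases in no other row. Reads of each pair are told apart by that base alone, so a misread base 12 would move a read between the paired miRNAs.

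The closest relatives of the miR-10 pair are miR-99a-5p, miR-100-5p and miR-99b-5p, whose genes lie outside the Hox clusters. Their seed differs.
miR-99a-5p: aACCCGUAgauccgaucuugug
miR-100-5p: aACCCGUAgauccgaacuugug
miR-99b-5p: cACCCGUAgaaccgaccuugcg
When base 6 of miR-10a-5p, a U, was left out, 20 of 22 bases were identical to miR-100-5p and 19 of 22 to miR-99a-5p. MiR-10b-5p shared 18 of 22 bases with miR-99b-5p in the same way. The missing base falls within the seed and shifts all that follows. The seed of miR-196 recurs at bases 3 to 9 of 8 mature miRNAs, all of them of the let-7 and miR-98 family. It is shown here in capitals in the most studied of these.
let-7a-5p: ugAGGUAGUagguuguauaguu

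The members come from all the mouse Hox clusters. Positions are from RefSeq on GRCm38.p6, the build named in the submitters' processing notes, and neighbours from GENCODE M21. Mir10a (chr11:96317165-96317274, plus strand) overlaps no other annotated gene and lies between Hoxb5 and Hoxb4, 992 bp before the latter. Mir10b (chr2:74726070-74726137, plus strand) lies within introns of the annotated Hoxd3 and Hoxd4 genes. MiR-196a-5p has 2 source genes with the same mature sequence, and reads cannot be assigned to either. Mir196a-1 (chr11:96265164-96265265, plus strand) lies 6191 bp before Hoxb9, and Mir196a-2 (chr15:102973350-102973434, plus strand) lies 1456 bp past Hoxc10, within an intron of the annotated Hoxc5 gene. Mir196b (chr6:52230081-52230165, minus strand) overlaps an annotated exon of Hoxa9. The mature miR-615-3p (chr15:103014969-103014990, plus strand) lies within an intron of Hoxc5. All 6 loci are on the strand of the Hox genes beside them.

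Both members with substantial reads are the 5′ arms of their hairpins, and the opposite arms were nearly absent. The hairpins of miR-10a and miR-10b, as deposited by the authors, are given with both mature arms in capitals, the 5′ arm first.
mir-10a: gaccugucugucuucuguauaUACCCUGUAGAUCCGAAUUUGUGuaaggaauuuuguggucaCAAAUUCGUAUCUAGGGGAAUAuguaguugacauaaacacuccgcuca
mir-10b: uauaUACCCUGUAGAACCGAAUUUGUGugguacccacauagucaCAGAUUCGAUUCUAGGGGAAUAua
MiR-10a-3p was listed at 0 in all 9 libraries, against 1243 reads on miR-10a-5p, which allows a share of up to 0.241% of the reads of both arms. MiR-10b-3p had 1 read in saline replicate 1 and 1 read in LPS + GAS replicate 1, or 0.258% of the 774 reads of both arms (95% confidence interval 0.0313% to 0.930%, exact Clopper-Pearson). Intervals and limits of this kind cover counting error only.

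Together the 5 members took 2060 of 94579964 reads, or 0.00218%. MiR-10a-5p, with 1243 reads over the 9 libraries, ranked 356 among the 1448 miRNAs, and miR-10b-5p, with 772 reads, ranked 388. MiR-196b-5p (30 reads) ranked 745, miR-196a-5p (10 reads) 928 and miR-615-3p (5 reads) 1035. The order was not equally firm along its length. MiR-10a-5p had more reads than miR-10b-5p in 9 of 9 libraries, and miR-10b-5p more than miR-196b-5p in 9 of 9. MiR-196b-5p exceeded miR-196a-5p in 7 of 9 libraries. MiR-196a-5p exceeded miR-615-3p in only 3 and equalled it in 5, so these neighbours in the order did not differ beyond their spread. Efficiency of ligation and amplification differs between miRNAs, which limits any comparison of levels between them, although the mature sequences are of nearly equal length (22 and 23 bases).

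The relatives outside the Hox clusters were more abundant by orders of magnitude. For each read of miR-10a-5p there were 3376 reads of miR-99a-5p, 479.5 of miR-100-5p and 459.7 of miR-99b-5p. MiR-99a-5p ranked 5 among all miRNAs. Let-7a-5p, which carries the shifted miR-196 seed, ranked 8 with 2936847 reads, against 30 on miR-196b-5p.

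**Figure D1:**
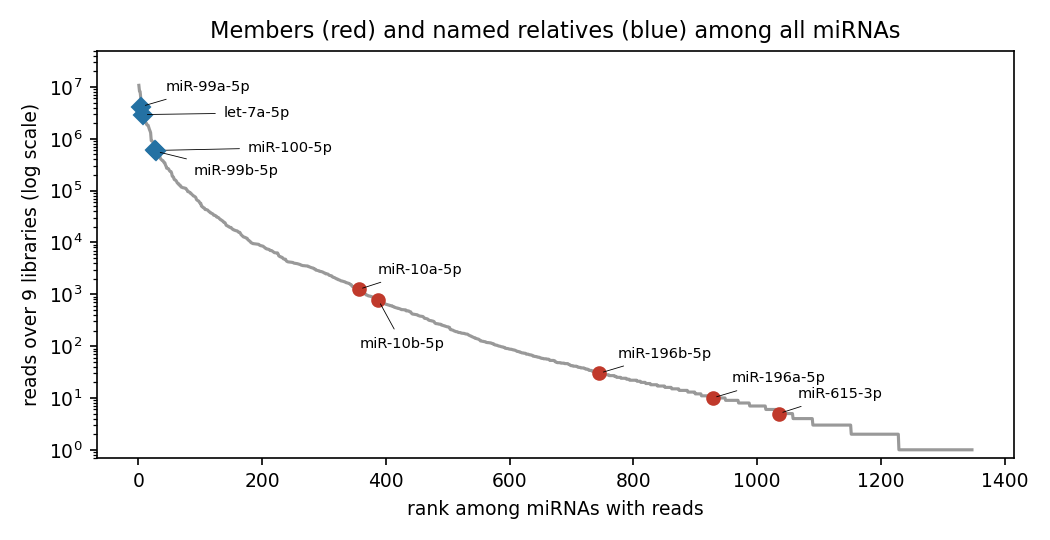
Reads summed over the 9 libraries (vertical axis, log scale) against rank among the miRNAs with at least 1 read (horizontal axis). Red circles mark the 5 Hox-cluster miRNAs, at ranks 356 to 1035, and blue diamonds mark miR-99a-5p, miR-99b-5p, miR-100-5p and let-7a-5p, which lie at the upper end of the curve.

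To see whether inflammation or gastrodin moved these miRNAs, each pair of groups was compared with the quasi-likelihood test of edgeR, adjusted by Benjamini-Hochberg over the 628 miRNAs that reached 10 reads in 3 or more libraries. Calling a change required both an adjusted p no higher than 0.05 and a log2 fold change of 1 or more in either direction. Of the 5 members, 2 passed the filter, miR-10a-5p and miR-10b-5p, and neither was called in any comparison. The background was as low. LPS vs saline had 0 calls among 628 miRNAs (0%), and LPS + GAS vs LPS also had 0 (0%). LPS + GAS vs saline had 1 (0.159%). An unadjusted p under 0.05 was reached by 15 miRNAs (2.39%) in LPS vs saline, by 23 (3.66%) in LPS + GAS vs LPS and by 21 (3.34%) in LPS + GAS vs saline. DESeq2's Wald test and limma-voom called neither member.

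Saline replicates 1, 2 and 3 held 152, 133 and 113 reads of miR-10a-5p. The counts after LPS were 82, 110 and 123, and after LPS + GAS they were 163, 219 and 148. The LPS + GAS libraries held the highest count and LPS replicate 1 the lowest. Its mean level was lowest after LPS, at 9.89 ± 2.20 CPM, with 12.6 ± 1.71 CPM after saline and 17.2 ± 4.31 CPM after LPS + GAS (SD, n = 3 each). Every LPS + GAS library was above every LPS library, the lowest at 14.3 CPM and the highest at 12.4 CPM. Such a separation with the LPS + GAS group higher was seen for 26 of the 628 miRNAs (4.14%). The saline libraries, at 11.4 to 14.5 CPM, overlapped both other groups. Same-numbered libraries of LPS + GAS and saline deviated together (correlations 0.296 to 0.370), although no label pairs them. Within these pairs miR-10a-5p was higher in LPS + GAS in 3 of 3, as were 9.08% of the 628 miRNAs. With the replicate number as a block the log2 difference of LPS + GAS vs saline was 0.44 (adjusted p = 0.998 by edgeR).

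On the log2 scale miR-10a-5p differed by 0.80 in LPS + GAS vs LPS (standard error 0.26, 95% interval 0.22 to 1.37). The edgeR p was 0.0115 before adjustment, which ranked 3 among the 628 miRNAs, and 0.903 after it. The fitted value lay above that of 94.4% of the tested miRNAs, whose median was 0.0030. Without LPS + GAS replicate 2 the log2 difference was 0.58, and without LPS replicate 3 it was 0.99. LPS vs saline gave −0.34 (standard error 0.26, adjusted p = 0.992 by the same test). LPS + GAS vs saline gave 0.45 (standard error 0.25, adjusted p = 0.998). Each group enters 2 of the 3 comparisons, so the values are not independent of each other.

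Reads of miR-10b-5p numbered 85, 57 and 32 after saline. They numbered 61, 44 and 112 after LPS and 69, 186 and 126 after LPS + GAS, again in the order of the replicates. No group stood apart: LPS + GAS replicate 1 was below saline replicate 1, and LPS replicate 3 was close to LPS + GAS replicate 3. The mean levels were 5.46 ± 2.47 CPM after saline, 7.0 ± 3.89 CPM after LPS and 12.5 ± 6.19 CPM after LPS + GAS (SD, n = 3 each). Between LPS + GAS and saline the level was 2.28-fold higher, a log2 difference of 1.19 (standard error 0.51, 95% interval 0.040 to 2.33). The edgeR p was 0.0438 unadjusted and 0.998 adjusted. Within the same-numbered pairs of LPS + GAS and saline, miR-10b-5p was higher in LPS + GAS in 2 of 3. Without LPS + GAS replicate 2 the log2 difference was 0.77, and without saline replicate 1 it was 1.64.

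The other differences of miR-10b-5p were smaller. In LPS + GAS vs LPS the log2 difference was 0.84 (standard error 0.51, adjusted p = 0.903 by edgeR), falling to 0.41 without LPS + GAS replicate 2 and rising to 1.36 without LPS replicate 3. In LPS vs saline it was 0.35 (standard error 0.51, adjusted p = 0.992), and without LPS replicate 3 it turned to −0.17. The sign in this last comparison therefore rested on a single library. MiR-10b-5p lay above 98.9% of the tested miRNAs in its fitted change of LPS + GAS vs saline, with libraries that nevertheless overlapped.

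**Figure D2:**
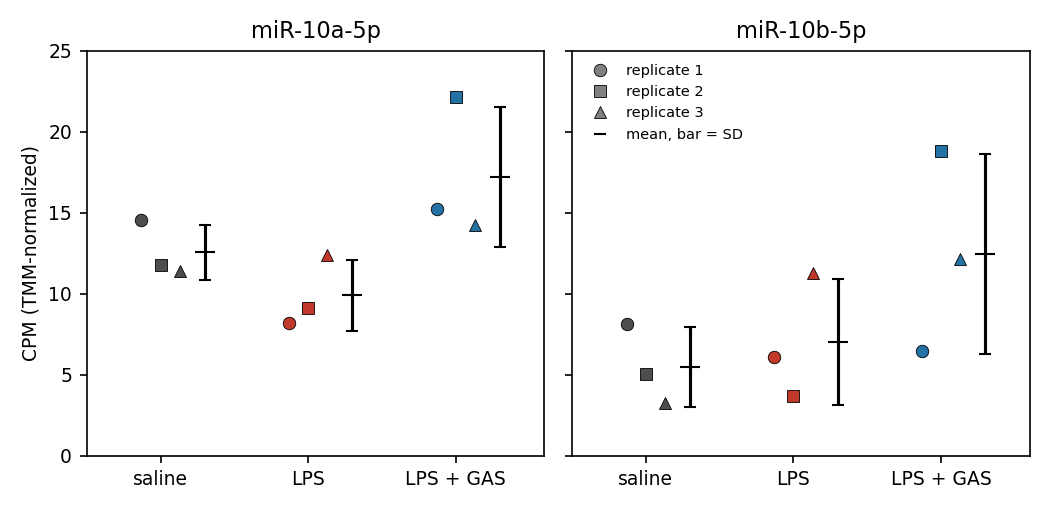
Level of miR-10a-5p (left) and miR-10b-5p (right) in each library, in TMM-normalized CPM, by group, with the mean and SD of 3 libraries beside the points. For miR-10a-5p the 3 LPS + GAS points lie above the 3 LPS points, whereas the groups overlap for miR-10b-5p, and LPS + GAS replicate 2 is highest in both panels.

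**Figure D3:**
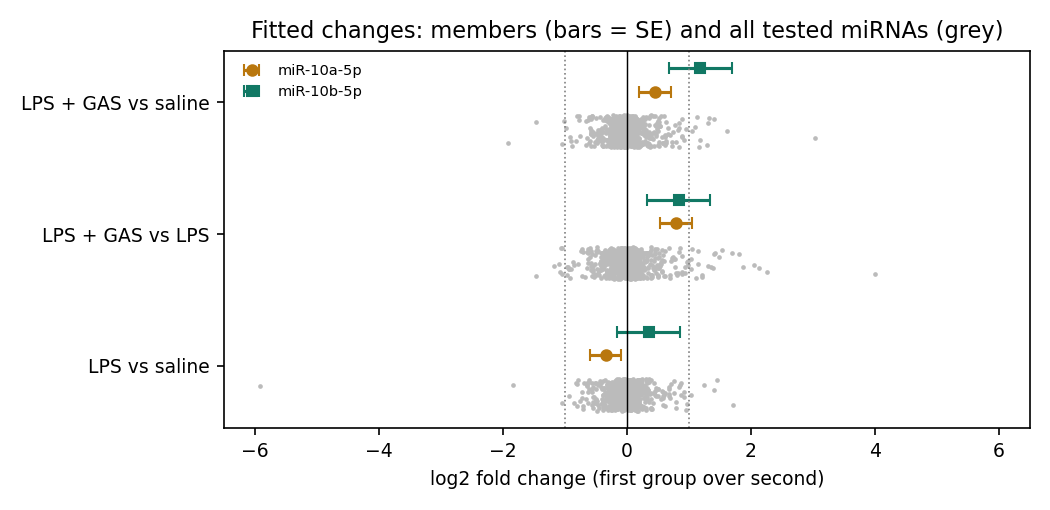
Fitted log2 fold changes (horizontal axis) in the 3 comparisons, for miR-10a-5p and miR-10b-5p with their standard errors and for all 628 tested miRNAs as grey points spread vertically for legibility. Dotted lines mark an absolute log2 fold change of 1, which miR-10b-5p exceeds in LPS + GAS vs saline, at 1.19.

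The spread between libraries differed within the pair. The biological coefficient of variation that edgeR estimated over the 9 libraries was 44.2% for miR-10b-5p and 26.3% for miR-10a-5p. For the 109 tested miRNAs with a mean of 5 to 20 CPM its median was 26.5%, so miR-10a-5p varied like others of its abundance and miR-10b-5p varied more. In the LPS + GAS group the variance of the reads of miR-10b-5p was 26.9 times their mean, where counting error alone gives about 1. For miR-10a-5p it was 7.93 times the mean in the same group and 2.87 times in the saline group. For both miRNAs the variance of the reads exceeded their mean in every group.

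As a level that does not depend on scaling, the share of miR-10b-5p in the reads of both miRNAs was computed. Saline gave 35.9%, 30% and 22.1%, LPS gave 42.7%, 28.6% and 47.7%, and LPS + GAS gave 29.7%, 45.9% and 46.0%. Each group held a library near 30%, and the 4 highest shares were found after LPS or LPS + GAS. The group means were 29.3 ± 6.92%, 39.6 ± 9.90% and 40.6 ± 9.36% (SD, n = 3). Exact two-sided permutation tests gave p = 0.3 for LPS vs saline, p = 0.9 for LPS + GAS vs LPS and p = 0.3 for LPS + GAS vs saline (0.45, 0.9 and 0.45 after adjustment over the 3 comparisons). With 3 libraries against 3 such a test cannot give a p below 0.1. The intervals by counting error (exact Clopper-Pearson) were 21.6% to 36.4% in LPS replicate 2 and 41.1% to 54.3% in LPS replicate 3.

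**Figure D4:**
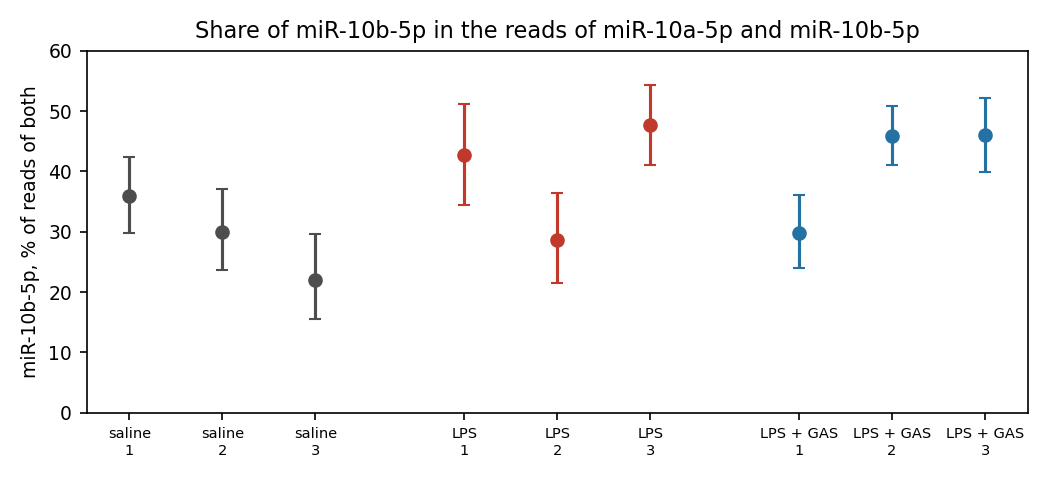
Share of miR-10b-5p in the reads of miR-10a-5p and miR-10b-5p in each library, in percent, with exact 95% binomial intervals that cover counting error only. The shares range from 22.1% in saline replicate 3 to 47.7% in LPS replicate 3, and the groups overlap.

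The remaining members were near the limit of detection. Over a library, 3 reads correspond to 0.262 to 0.296 reads per 1000000, which is the level that a count of 0 allows. For miR-196b-5p, saline gave 5, 4 and 3 reads, LPS gave 2, 0 and 2, and LPS + GAS gave 5, 6 and 3. No LPS library exceeded 2 reads and no other library fell below 3. Of the 719 miRNAs with reads that did not pass the filter, 2.92% had all LPS libraries below all saline libraries in CPM, and 3.2% had all LPS + GAS libraries above all LPS libraries. In the sums over each group these were 12, 4 and 14 reads, and the rate in LPS + GAS was 3.42 times that in LPS (95% interval 1.07 to 14.2, exact, counting error only). An exact two-sided permutation test on CPM gave p = 0.1 for LPS + GAS vs LPS and p = 0.1 for LPS vs saline, the smallest it can give, and 0.3 after adjustment over the 9 tests of the 3 rarest members. In edgeR without a filter the unadjusted p was 0.0360 and 0.0873, with adjusted p = 0.877 and 1.00.

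For miR-196a-5p, saline gave 0, 1 and 1 reads, LPS gave 0, 2 and 0, and LPS + GAS gave 2, 1 and 3. It was detected in all 3 LPS + GAS libraries, in 2 saline libraries and in 1 LPS library. The LPS + GAS libraries lay above the saline libraries in CPM (exact permutation p = 0.1, adjusted 0.3), but their lowest library and the highest saline libraries both held 1 read, so that only the scaling separated them. Such a separation was seen for 2.23% of the 719 miRNAs. For miR-615-3p, saline gave 1, 0 and 1 reads, LPS gave 0 in each library, and LPS + GAS gave 2, 1 and 0. Its 0 reads after LPS allow a level of up to 0.0977 reads per 1000000 over the 3 libraries together, and a difference from the 2 and 3 reads of the other groups was not detectable at this depth.

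**Figure D5:**
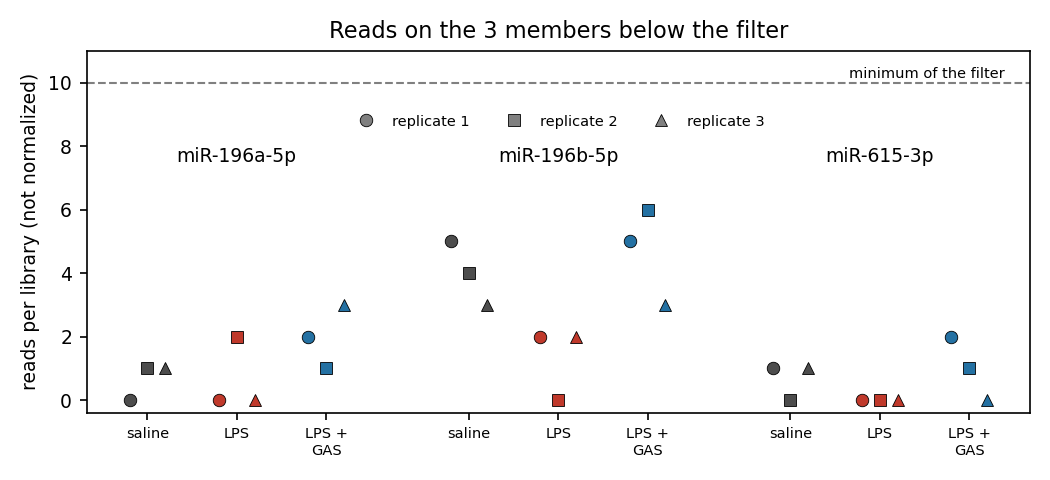
Reads per library, not normalized, on miR-196a-5p, miR-196b-5p and miR-615-3p by group. All points lie at 6 reads or below, under the dashed line at 10 reads that marks the minimum of the filter, and the LPS libraries of miR-196b-5p, at 0 to 2 reads, lie below those of the other groups.

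The relatives of miR-10 outside the Hox clusters had smaller fitted changes, none of them called. In LPS + GAS vs LPS the log2 difference was 0.10 for miR-99a-5p, 0.34 for miR-99b-5p and 0.25 for miR-100-5p (standard errors 0.15, 0.28 and 0.15), beside 0.80 and 0.84 for miR-10a-5p and miR-10b-5p. In LPS + GAS vs saline these were −0.092, 0.15 and 0.080. Whether the relatives differ from the miR-10 pair in their change was not tested.

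The miRNAs whose level followed the pair most closely over the 9 libraries were sought among the other 626 tested miRNAs by Pearson's r of log2(CPM + 1), as a description. For miR-10a-5p they were miR-100-5p (r = 0.869), miR-33-5p (r = 0.851) and miR-23a-3p (r = 0.851). For miR-10b-5p they were miR-342-3p (r = 0.905), miR-16-5p (r = 0.881) and miR-23a-3p (r = 0.867). MiR-10a-5p and miR-10b-5p had r = 0.738 with each other, and the median over all miRNAs was near 0. All of these were computed on the same libraries with the same scaling. With the group means removed, r was 0.818, 0.589 and 0.943 for the miRNAs named with miR-10a-5p and 0.85, 0.852 and 0.834 for those named with miR-10b-5p. LPS + GAS replicate 2, the library with the highest miR-10a-5p and miR-10b-5p, also had the highest level of each of these 5 miRNAs. They were chosen for following the pair over the same libraries, so the shared peak is not separate evidence of a link. The correlations without that library were not computed.

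Marker lists of other cell types and tissues were measured in the same libraries, and no marker was called in any comparison. Of 15 miRNAs of choroid plexus and ependyma, 14 had a log2 fold change above 0 in LPS + GAS vs LPS, with a median of 1.40, and all 15 in LPS + GAS vs saline, with a median of 0.92. In LPS vs saline 14 of the 15 were below 0, with a median of −0.52. Of all tested miRNAs 50.6%, 44.1% and 42.5% were above 0 in these comparisons. The summed level of the 15 was 9598 to 30710 CPM in the saline libraries, 9702 to 23070 CPM in the LPS libraries and 12330 to 59210 CPM in the LPS + GAS libraries. Replicate 1 was the highest of the LPS + GAS libraries, at 59210 CPM, and replicate 3 held 27400 CPM. The lowest of the LPS + GAS libraries was replicate 2, which had the highest level of both miR-10a-5p and miR-10b-5p. The most abundant marker, miR-204-5p, differed by 1.15 in LPS + GAS vs LPS (standard error 0.60).

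All 5 red blood cell miRNAs had values above 0 in LPS + GAS vs LPS (median 1.04) and LPS + GAS vs saline (median 0.61), with miR-451a at 1.04 in the former (standard error 0.29). Their sum was 2065 to 4317 CPM in the saline libraries, 2189 to 3274 CPM in the LPS libraries and 4606 to 6222 CPM in the LPS + GAS libraries. In LPS vs saline all 5 were below 0 (median −0.36). MiR-486a-5p and miR-486b-5p had identical values there (−0.364, standard error 0.223), so the 5 are not all separate measurements. Of 4 miRNAs of meninges and fibroblasts, 4 were above 0 in LPS + GAS vs LPS (median 0.84), with miR-199a-5p the most abundant. Their sum was 27.2 to 63.05 CPM in the saline libraries and 28.7 to 34.4 CPM in the LPS libraries. In the LPS + GAS libraries it was 38.6 to 76.7 CPM, with replicate 2 the lowest. In LPS vs saline all 4 were below 0 (median −0.43). The 4 miRNAs of blood vessels had a median of 0.19 in LPS + GAS vs LPS and −0.028 in LPS vs saline, a sum of 16410 to 22890 CPM over the 9 libraries and miR-126a-3p at 0.12 in the former (standard error 0.14). For 4 miRNAs of leukocytes and microglia the medians were 0.27 and −0.024 and the sum 2569 to 6226 CPM, with miR-150-5p at 0.042 in LPS + GAS vs LPS. The 3 oligodendrocyte miRNAs were all above 0 in LPS + GAS vs LPS (median 0.46) and all below 0 in LPS vs saline (median −0.61), on a sum of 1443 to 4818 CPM, with miR-219a-2-3p the most abundant. The 4 neuronal miRNAs had medians of −0.078 and 0.21 in these comparisons, and their sum was highest of all libraries in LPS + GAS replicate 2, at 118000 CPM. Within its group that replicate was also lowest for blood vessels, at 19950 CPM. It lay between the other LPS + GAS libraries for red blood cells, for leukocytes and microglia and for oligodendrocytes. In LPS + GAS vs saline the medians were 0.31 for meninges and fibroblasts, 0.0051 for blood vessels, 0.42 for leukocytes and microglia, −0.15 for oligodendrocytes and 0.068 for neurons. No marker was listed at 0 in every library. The part of these tissues in the levels of the Hox-cluster miRNAs was not tested. In bulk tissue, fewer cells of a type and less RNA per cell cannot be told apart.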

How the data were processed

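The authors deposited a table with a row per mature miRNA. It holds the read counts of each library, which are not normalized, and other deposited whole numbers named exp, at or below the read counts, whose making the sources used here do not describe and which served as an alternative. Its averages and the authors' own comparisons (log2 fold changes, p-values and q-values) were not used. The submitters' processing notes name GRCm38.p6; for the aligner, as for the miRBase release, a name was not given in the sources used here. No per-library column was left unmapped.

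The counts went into edgeR 4.0.16 (R 4.3.3) after a filter that required 10 reads in 3 or more libraries and kept 628 of 1448 miRNAs, and the 9 libraries were fitted with a mean per group after TMM normalization (factors 0.914 to 1.19). DESeq2 1.42.0 and limma 3.58.1 (voom) served as alternatives. The edgeR, DESeq2 and voom steps were tested on simulated data whose changes were larger than those of the members. That test does not show whether changes as small as theirs would be called. The miRNAs below the filter and the share were tested by exact permutation in scipy 1.17.1. At 10119758 to 11457656 reads per library, 10 reads are 0.873 to 0.988 per 1000000.

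Same-numbered libraries of LPS + GAS and saline deviated together (correlations 0.296 to 0.370 over 3 pairs); this pairing comes from the correlations alone, since no shared litter or batch is named.

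Named miRNAs were the members, their other arms, miR-99a-5p, miR-99b-5p, miR-100-5p, let-7a-5p, the 3 closest in pattern to miR-10a-5p and to miR-10b-5p, and the most abundant of each marker list. Members and lists (neurons, oligodendrocytes, choroid plexus and ependyma, red blood cells, leukocytes and microglia, blood vessels, meninges and fibroblasts) were chosen with earlier results of these data known.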

Additional observations from a re-analysis of the deposited data

How the results depend on the processing

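For miR-10a-5p and miR-10b-5p, 21 alternatives were run in each of the 3 comparisons: no filter, a stricter filter (50 reads in 3 libraries), the size factors of DESeq2, its Wald test, limma-voom, robust fitting, only the 2 groups compared, the replicate number as a block, the exp values, each library left out, the reads of both miRNAs added, no minimum fold change and an adjusted p of at most 0.001. The last 2 change only the threshold and repeat the main values, so they do not bear on the direction. None called either miRNA, and the lowest adjusted p was 0.555, for miR-10a-5p in LPS + GAS vs LPS with no filter. With the others the direction turned only for miR-10b-5p in LPS vs saline, to −0.17 without LPS replicate 3. The reads of both miRNAs added gave −0.094 there. That is a value of the pair, in which miR-10a-5p had more reads, and not of miR-10b-5p alone. With each library left out in turn, miR-10a-5p ranged from −0.53 to −0.18 in LPS vs saline, from 0.58 to 0.99 in LPS + GAS vs LPS and from 0.23 to 0.64 in LPS + GAS vs saline, and miR-10b-5p from −0.17 to 0.79, from 0.41 to 1.36 and from 0.77 to 1.64. With the replicate number as a block, miR-10a-5p gave −0.35, 0.79 and 0.44 and miR-10b-5p 0.31, 0.85 and 1.15, and the block changed no call. In LPS vs saline and LPS + GAS vs LPS the same-numbered libraries did not deviate together in every pair (lowest correlations −0.284 and −0.274).

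For the rarest members and the share, directions of small differences turned. In LPS vs saline the CPM difference of miR-196a-5p, −0.0077, was 0.0023 per 1000000 without TMM factors, the log2 fold change by edgeR with no filter was 0.014, and leaving out a library gave −0.0631 to 0.0200. In LPS + GAS vs saline that of miR-196b-5p ranged from −7.91e-05 to 0.159 and that of miR-615-3p from −0.0149 to 0.0785 on leaving out a library. The difference in the share of miR-10b-5p between LPS + GAS and LPS, 0.922 percentage points, ranged from −4.61 to 6.33 in the same way. All other alternatives for these results kept the direction. Depth limits miR-196a-5p, miR-196b-5p and miR-615-3p, which had 10, 30 and 5 reads in all.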
